A study of Mus musculus with 4 samples.

Results

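BRG1/BRM islands that lie where the ends of neighbouring genes adjoin were described in depolarized mouse cortical neurons. An island is a stretch of the genome enriched in immunoprecipitated (IP) over control reads. Members were the islands of the KCl list that were wider than 600 bp and narrower than 5000 bp and overlapped the window of 2 kb to either side of a start or end coordinate of at least 2 different RefSeq protein-coding genes (mouse build mm10). The rule found 811 of 20966 KCl islands (3.87% [3.61 to 4.14], where brackets hold 95% exact Clopper-Pearson intervals throughout, which cover counting error only). They made up 18.3% [17.2 to 19.5] of the 4425 islands of these widths that lay at any gene end, the other 3614 being at the end of 1 gene.

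Occupancy had been mapped by ChIP-seq with J1, an antibody to the alternative ATPases BRG1 and BRM, in wild-type primary cortical neurons from E16.5 mouse embryos at day 6 in vitro. Neurons were either at the basal KCl level or had received 50 mM KCl for 1 h, after the sodium channel blocker TTX at 1 µM and APV at 100 µM, a blocker of NMDA receptors, had been added on day 5. The labels leave unsaid whether the blockers were also given to basal cultures, how many embryos were pooled, or how pure the cultures were. Each condition had 1 IP and 1 input library, so differences between conditions have no replicates behind them and are given without p-values.

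BRG1 and BRM are the motors of the BAF (SWI/SNF) complexes, which use ATP to move or evict nucleosomes and so open promoters and enhancers. Where the starts of neighbouring genes lie close together on opposite strands, pointing away from each other, they form a head-to-head or bidirectional promoter, an arrangement common in mammals and frequent among DNA repair, mitochondrial and histone genes. Such promoters are usually CpG islands, often lack a TATA box, and can serve both genes from 1 nucleosome-depleted stretch.

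The DNA between such starts is shown for several members, all of which but Glod4 with Mrm3 recur in the results. It is given as the reference (plus) strand between the listed starts of both genes, from RefSeq sequence of GRCm38.p6. Capitals mark exact matches, on either strand, to the cAMP response element (CRE, TGACGTCA), the SP/KLF GC box (GGGCGG), the CCAAT box (CCAAT), the ETS site (CCGGAAGT), the NRF1 site and the E-box (CACGTG). A match is a description of letters and shows no binding. The first 6 pairs came from the islands named by rule, and the last 2 were chosen after their values were seen, for a CRE in a very short promoter and for a histone pair.
Aimp1 and Tbck, chr3:132683880-132684143, plus strand: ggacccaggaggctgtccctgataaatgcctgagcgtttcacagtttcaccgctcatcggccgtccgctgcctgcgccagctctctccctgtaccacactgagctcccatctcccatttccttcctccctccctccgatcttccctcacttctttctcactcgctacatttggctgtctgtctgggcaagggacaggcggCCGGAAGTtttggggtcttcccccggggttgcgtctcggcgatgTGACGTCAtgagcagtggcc
Rad51c and Tex14, chr11:87404955-87405064, plus strand: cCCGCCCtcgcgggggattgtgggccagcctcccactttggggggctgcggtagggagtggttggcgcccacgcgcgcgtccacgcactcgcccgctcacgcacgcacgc
Zswim7 and Ttc19, chr11:62281396-62281472, plus strand: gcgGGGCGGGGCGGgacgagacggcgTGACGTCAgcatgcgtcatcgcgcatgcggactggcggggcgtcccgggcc
Osgep and Apex1, chr14:50924894-50924948, plus strand: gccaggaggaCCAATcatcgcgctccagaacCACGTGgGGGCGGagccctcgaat
Mrpl32 and Psma2, chr13:14613038-14613241, plus strand: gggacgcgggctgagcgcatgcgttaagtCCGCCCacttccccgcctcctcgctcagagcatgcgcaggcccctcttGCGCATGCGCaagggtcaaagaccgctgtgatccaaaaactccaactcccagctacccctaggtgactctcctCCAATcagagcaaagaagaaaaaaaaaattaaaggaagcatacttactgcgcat
Hspd1 and Hspe1, chr1:55087933-55088147, plus strand: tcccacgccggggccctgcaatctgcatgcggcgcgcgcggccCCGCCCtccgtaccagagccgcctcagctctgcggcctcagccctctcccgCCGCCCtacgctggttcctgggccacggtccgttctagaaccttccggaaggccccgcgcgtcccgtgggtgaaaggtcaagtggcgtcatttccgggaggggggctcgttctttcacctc
Glod4 and Mrm3, chr11:76243700-76243735, plus strand: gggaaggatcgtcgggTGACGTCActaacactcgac
H2ac11 and H2bc11, chr13:22042950-22043197, plus strand: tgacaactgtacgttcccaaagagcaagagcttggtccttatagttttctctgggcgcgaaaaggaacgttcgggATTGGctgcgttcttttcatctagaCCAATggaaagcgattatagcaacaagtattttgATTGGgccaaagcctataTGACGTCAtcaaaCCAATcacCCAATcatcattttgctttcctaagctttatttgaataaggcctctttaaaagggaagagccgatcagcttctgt
The stretch between Aimp1 and Tbck held 1 CRE and 1 ETS site, and the 77 bases between Zswim7 and Ttc19 held 1 CRE beside overlapping GC boxes. Aimp1 with Tbck and Hspd1 with Hspe1 overlap by their outermost gene ends, although their listed starts diverge. Between Glod4 and Mrm3 the CRE stood in only 36 bases. The histone pair H2ac11 and H2bc11 had 5 CCAAT boxes and 1 CRE, whereas Hspd1 and Hspe1 had GC boxes but no CRE. Among the 184 members whose listed starts diverged and lay 20 to 300 bases apart, 116 were head-to-head by their gene ends and 68 overlapped, and the stretch had a median length of 125.5 bases. A GC box occurred in 102 of these 184 stretches, a CCAAT box in 60, an E-box in 14 and an ETS site in 11. A CRE occurred in 10, an NRF1 site in 6 and a TATA box (TATAAA) in 3. The printed pairs thus do not stand for the members in their CREs. No share over pairs without an island is given for such stretches.

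Inside the islands of the KCl list lay 1433200 IP and 400612 control reads; the sources used here do not give total depth. A member held 33 to 183 IP reads (median 68) and 4 to 66 control reads (median 25), so the fold of a single member carries a wide interval. The deposited fold is IP over control reads divided by a library constant of 1.59. As a check of the cell type, 30 of 40 cortical neuron and synaptic genes had a KCl island of any width within 2 kb of an end, as had 4 of 15 astrocyte, 2 of 15 oligodendrocyte lineage and 0 of 15 microglia genes, beside 25.2% of all protein-coding genes. In a bulk culture, an island carried strongly by few cells and one carried weakly by many cannot be told apart.

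Nearly all members joined exactly 2 genes. There were 751 such islands, 54 touched 3 genes, 4 touched 4 and 1 touched 5, and 1 island touched 25. In all, 1656 genes were touched, 7.56% of the 21896 protein-coding genes. Strand was listed for 83.2% of them. The second gene end lay inside the island itself at 507 members (62.5%), and in the flanking 2 kb at the rest. A known gene start lay within 2 kb of 692 members (85.3%).

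Head-to-head starts were the commonest arrangement. They were found at 227 members (28.0% [24.9 to 31.2]). At 153 further members (18.9% [16.2 to 21.7]) the genes also lay on opposite strands with their starts at the island, but their 5′ ends overlapped, by a median of 374 bp, an arrangement called overlapping heads here. Paired starts on opposite strands thus accounted for 380 members (46.9% [43.4 to 50.4]). A start beside the far end of the next gene (head-to-tail) occurred at 180 members (22.2%), adjoining far ends (tail-to-tail) at 46 (5.67%), and starts on the same strand at 9 (1.11%). The other 196 (24.2%) were left unresolved because the strand of a gene was not listed. Head-to-head was the only arrangement named despite a missing strand. Where every strand was known, its share was 36.6%.

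The arrangements were not equally likely to carry an island. Among the 4436 gene pairs of known strand whose ends lay within 4 kb of each other anywhere in the genome, 15.5% had an island over both end windows. The share was 29.2% [26.1 to 32.6] for head-to-head pairs (229 of 783) and 37.1% [32.4 to 42.0] for overlapping heads (154 of 415). It was 13.5% [11.9 to 15.2] for head-to-tail pairs (229 of 1698) and 4.60% [3.58 to 5.80] for tail-to-tail pairs (67 of 1458). The intervals of the arrangements with paired starts did not overlap those of head-to-tail or tail-to-tail pairs. Pairs that share a gene or an island are not independent, which these intervals do not take into account.

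**Figure D1:**
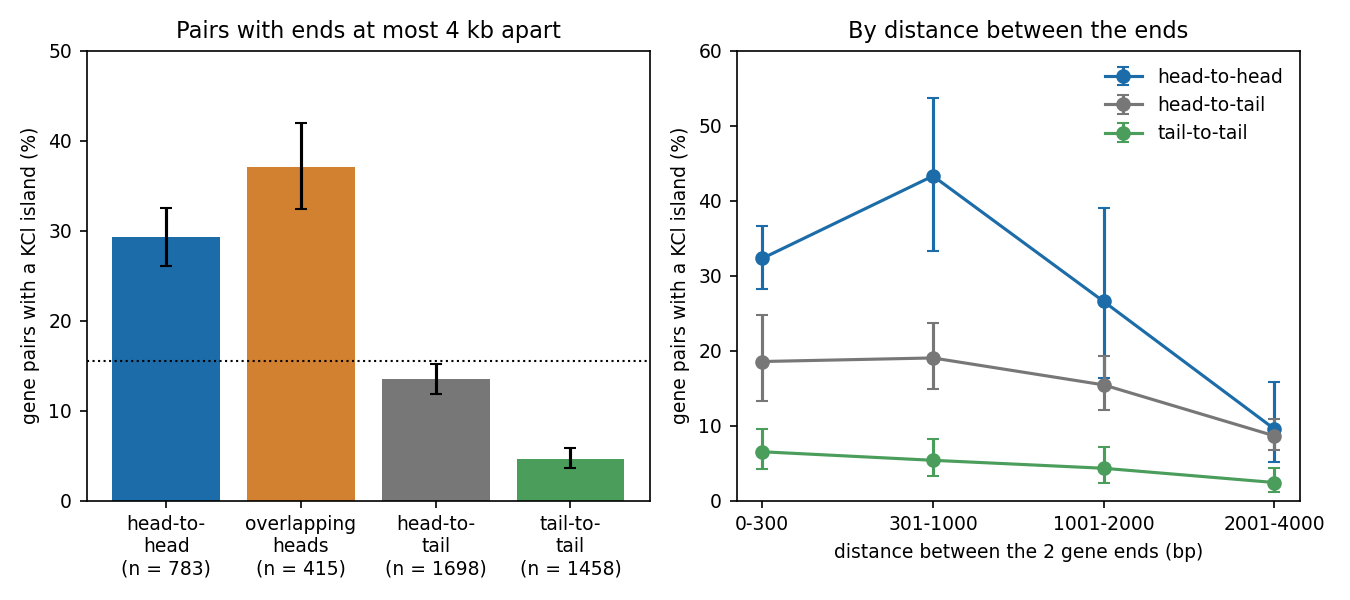
Share (%) of gene pairs with ends at most 4 kb apart that had a KCl island over both end windows, by arrangement (left, n = pairs, dotted line at 15.5% for all pairs of known strand) and by the distance between the ends in bp (right). Points or bars are shares and error bars 95% Clopper-Pearson intervals. Tail-to-tail pairs lie lowest in every distance class, and head-to-head pairs fall to 9.56% beyond 2000 bp.

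Coverage was lowest for ends beyond 2000 bp in all 3 arrangements followed by distance. The definition itself favours close ends, since 1 island narrower than 5000 bp has to reach the windows of both. Head-to-head pairs with starts over 300 and up to 1000 bp apart had an island most often, at 43.3% [33.3 to 53.7] (42 of 97), and those 0 to 300 bp apart at 32.3% [28.2 to 36.7] (157 of 486), with overlapping intervals. The share was 26.6% [16.3 to 39.1] beyond 1000 and up to 2000 bp, and 9.56% [5.19 to 15.8] beyond 2000 and up to 4000 bp. Tail-to-tail pairs stayed between 2.42% and 6.52% in every class of distance. Head-to-tail pairs ran from 8.64% in the widest class to 19.0% beyond 300 and up to 1000 bp.

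Pooled over the 227 head-to-head islands, the median reach to the left and to the right of the paired starts was about equal. Both starts lay inside the island at 192 of 227 (84.6% [79.2 to 89.0]), 1 start at 28 and neither at 7. The starts were a median of 136 bp apart (interquartile range 58 to 367.5 bp), and 200 pairs (88.1%) were within 1 kb. The island reached a median of 1.12 kb to the left and 1.13 kb to the right of the midpoint of the starts. Left and right follow the reference strand, so these medians cannot show that single islands were even. The centre of an island lay a median of 366.5 bp from the midpoint on either side, with an upper quartile of 757 bp. Oriented by gene instead, the 2474 islands at the start of 1 gene reached a median of 0.649 kb upstream and 1.74 kb into the gene. At 1 kb to either side of the midpoint, 58.1% (left) and 59.0% (right) of head-to-head islands still covered the position. At lone starts the coverage was 28.3% at 1 kb upstream and 77.4% at 1 kb inside the gene. Both sides of a head-to-head midpoint lead into a gene, whereas 1 side of a lone start does, so the shapes are a description.

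**Figure D2:**
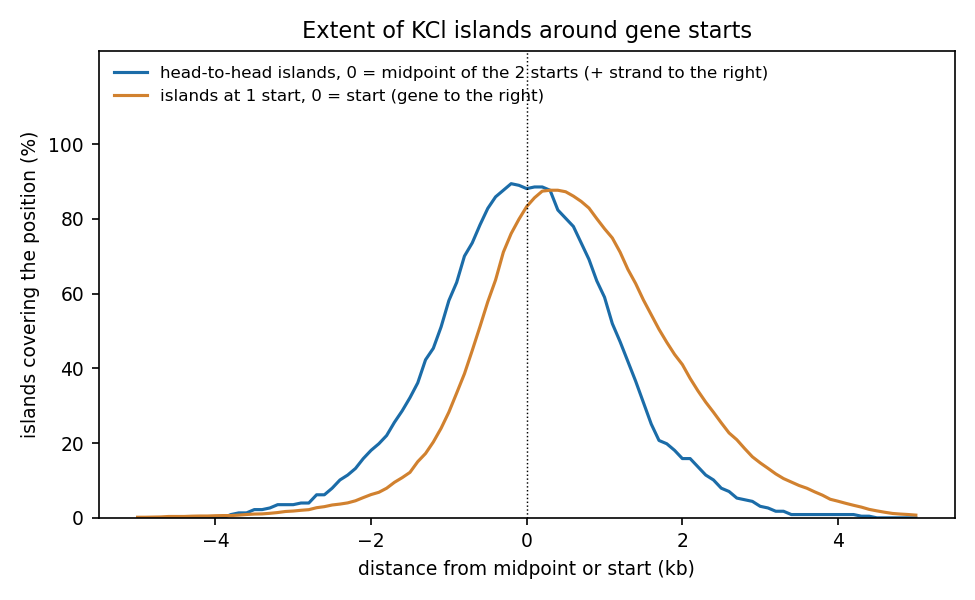
Share (%) of islands that covered each position, against distance in kb from the midpoint of the paired starts (227 head-to-head members) or from the start (2474 islands at 1 start, gene to the right). The head-to-head curve, pooled with left and right by reference strand, is nearly even on both sides of the midpoint, where it stands at 88.1%. The curve for lone starts, oriented by gene, leans into the gene.

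Members were weakly enriched islands. Their median fold was 1.75 (interquartile range 1.54 to 2.02, lowest 1.28, highest 5.81). Islands of the same widths at 1 gene end had a median of 1.85 (1.59 to 2.24), and those at no gene end 2.55 (1.96 to 3.42). A fold of at least 2 was found for 216 members (26.6% [23.6 to 29.8]), beside 66.6% of all KCl islands, 37.9% at 1 gene end and 73.5% at no gene end. A fold of at least 3 was reached by 31 members (3.82%), beside 32.9% of all KCl islands. The interval of the fold lay above 1 for 568 members (70.0% [66.8 to 73.2]), beside 86.4% of all KCl islands. The 408 members (50.3%) with an FDR no higher than 1e-05 stand beside 76.9% of all.

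Both read counts moved with this order. Members had a median of 29.3 IP and 10.4 control reads per kb, islands at 1 gene end 29.5 and 10.0, and islands at no gene end 36.2 and 9. Median width was 2400 bp at gene ends of either kind and 1600 bp elsewhere. Within widths of 1000 to 3000 bp the median folds were 1.79, 1.88 and 2.51 in the same order. Median widths in that range still differed, at 2200, 2000 and 1600 bp, so the folds were not compared at equal width. The part of the control reads in the folds was not tested. Islands at 1 far end, with no start nearby, had a median of 2.25, and those at 1 start 1.81.

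**Figure D3:**
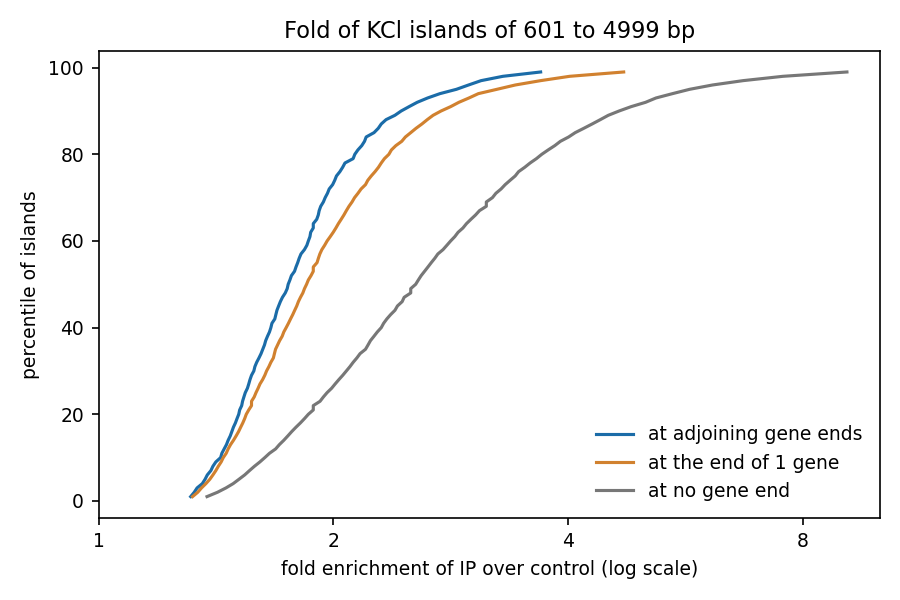
Percentile of islands (vertical) against deposited fold of IP over control reads (horizontal, log scale) for KCl islands over 600 and under 5000 bp wide at adjoining gene ends (811), at the end of 1 gene (3614) and at no gene end (13603). The curve of adjoining ends lies furthest left, with a median of 1.75, and that of islands away from genes furthest right, with 2.55.

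The arrangements differed little in fold. The median was 1.75 for head-to-head members, 1.81 for overlapping heads, 1.86 for tail-to-tail, 1.74 for head-to-tail and 1.60 for the 9 with starts on the same strand. Among the 46 tail-to-tail members, 26 also had a known start within 2 kb (median 1.71) and 20 had none (median 2.06). The 60 members at 3 or more genes had a median of 1.65, and 56.7% of them had an interval above 1. At head-to-tail members the island held the start but not the far end in 90 of 180 cases (50%), both in 55, the far end alone in 7 and neither in 28.

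The 8 head-to-head members with the largest folds are named here. The island between Nsa2, a ribosome assembly factor, and Gfm2, a mitochondrial translation factor, held 34 IP and 5 control reads (chr13:97137801-97138600, 4.27-fold [1.66 to 14.0]). Rad51c, which acts in homologous recombination, and Tex14, needed for germ cell bridges, shared one with 52 IP and 8 control reads (chr11:87403401-87405000, 4.08-fold [1.93 to 9.95]). It covered only 1 of these starts and extended over 1.58 kb to the left of their midpoint. Fam162a and Ccdc58, which both encode mitochondrial proteins, shared an island of 64 IP and 10 control reads (chr16:36070401-36072000, 4.02-fold [2.05 to 8.78]). The intervals of these islands overlap, so their order is not resolved.

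Zswim7, which acts in homologous recombination, and Ttc19, an assembly factor of respiratory complex III, were joined by an island of 64 IP and 11 control reads (chr11:62280801-62282200, 3.65-fold [1.91 to 7.68]). Its promoter is the one printed above with 1 CRE. Inha, the inhibin alpha subunit, and Obsl1, a cytoskeletal adaptor, had 62 IP and 11 control reads (chr1:75504801-75506400, 3.54-fold [1.85 to 7.46]). This island covered neither start and lay wholly to the left of their midpoint, with edges at -1.98 and -0.38 kb. Foxj3, a forkhead factor, and Frg2f1 had 35 IP and 7 control reads (chr4:119539401-119540400, 3.14-fold [1.37 to 8.38]). Their island covered only 1 of the starts. A further island lay at Nabp2, a single-strand DNA-binding protein of the damage response, with the ubiquitin ligase gene Rnf41. It held 48 IP and 10 control reads (chr10:128411201-128412800, 3.01-fold [1.51 to 6.68]). Another member at this pair, outside the 8, was 1.33-fold enriched and covered neither start. The last of the 8 was at Osgep, which modifies tRNA, and Apex1, the main apurinic endonuclease of base excision repair. It held 55 IP and 12 control reads (chr14:50924201-50925800, 2.88-fold [1.52 to 5.91]). Apex1 also had a tail-to-tail member with Pip4p1 (1.67-fold [1.16 to 2.42]). None of these 8 places had a basal island, which was rare in any case, at 2.15% of all KCl islands and 0.441% of head-to-head members.

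Overlapping heads held one of the largest folds of all members. Aimp1, a scaffold of the multi-tRNA synthetase complex, and Tbck overlapped by 277 bp under an island of 44 IP and 5 control reads (chr3:132683801-132684600, 5.53-fold [2.20 to 17.9]). Rgp1, part of a Rab exchange factor at the Golgi, and the glucosylceramidase gene Gba2 had 47 IP and 8 control reads (chr4:43578201-43579600, 3.69-fold [1.73 to 9.04]). Snap29, a SNARE of membrane fusion, and the lipid kinase gene Pi4ka had 86 IP and 15 control reads (chr16:17404801-17406800, 3.60-fold [2.07 to 6.71]). Ndufa13, a subunit of respiratory complex I, and the testis kinase gene Tssk6 had 58 IP and 11 control reads (chr8:69900601-69903000, 3.31-fold [1.72 to 7.0]).

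The 4 tail-to-tail members with the largest folds, of 46, were the following. Tefm, which supports mitochondrial transcription elongation, and Atad5, which unloads PCNA after replication, ended 877 bp apart under an island of 69 IP and 14 control reads (chr11:80134201-80135200, 3.10-fold [1.73 to 5.96]). Mat2a, which makes the methyl donor S-adenosylmethionine, and Ggcx, the vitamin K-dependent carboxylase, had 63 IP and 13 control reads (chr6:72430801-72432400, 3.04-fold [1.66 to 6.03]). The island at Znhit2, Tm7sf2 and Fau was 3.01-fold enriched, and that at Leng8, Leng9 and Cdc42ep5 2.90-fold.

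Head-to-tail members with the largest folds were led by the predicted genes Gm35257 and Gm52260, with 44 IP and 6 control reads (chr16:89261601-89263000, 4.61-fold [1.96 to 13.2]). Nt5c1b, a nucleotidase gene, and Rdh14, a retinol dehydrogenase gene, had 46 IP and 9 control reads (3.21-fold [1.55 to 7.46]). Med1, a Mediator subunit that contacts nuclear receptors, and Fbxl20 had 71 IP and 15 control reads (2.97-fold [1.69 to 5.59]). Ddo, which degrades D-aspartate, and Mettl24 had 46 IP and 10 control reads (2.89-fold [1.44 to 6.42]). Members with starts on the same strand stayed low. The highest of them were Utp14b with Acsl3 (1.70-fold), Gdf1 with the ceramide synthase gene Cers1 (1.69-fold), Prn with the prion protein gene Prnp (1.69-fold) and Pet117 with the acetyltransferase gene Kat14 (1.61-fold).

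Where a strand was missing, the highest fold was at Dand5, an antagonist of Nodal signalling, and Gadd45gip1, a mitochondrial ribosome protein (37 IP and 4 control reads, chr8:84831801-84832800, 5.81-fold [2.09 to 22.4]). Slc20a2, a phosphate transporter gene, with Smim19 (4.22-fold) and Armc5 with 9130023H24Rik (3.77-fold) came next. The fourth, 1700008O03Rik with Shank1, which encodes a postsynaptic scaffold, had 71 IP and 13 control reads (chr7:44359001-44361200, 3.43-fold [1.88 to 6.76]).

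Size in reads and size in fold named different islands. The most IP reads lay between Nln, the peptidase neurolysin, and Sgtb, a co-chaperone gene, where a 4800 bp island held 183 IP and 46 control reads (chr13:104108001-104112800, 2.50-fold [1.80 to 3.53]). Arid2, a subunit of the related PBAF remodeller, and Gm38469 had 171 IP and 61 control reads (chr15:96282001-96286800, 1.76-fold [1.31 to 2.40]). Lrrc69 and the anion exchanger gene Slc26a7 had 167 IP and 35 control reads (3.00-fold [2.07 to 4.45]).

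The island with 25 genes lay at the shared 3′ end of the gamma protocadherin cluster and the formin gene Diaph1 on chromosome 18 (chr18:37840601-37842800). Gamma protocadherins are cell-surface labels of neurons whose genes use separate first exons and common last exons, so 1 end coordinate is counted for many genes. It held 54 IP and 19 control reads (1.79-fold [1.04 to 3.19]). Tomm6, Frs3, Usp49, Prickle4 and Gm20517 met at an island of 73 IP and 21 control reads (chr17:47687201-47690000, 2.18-fold [1.33 to 3.74]). Fkbp2, Plcb3, Ppp1r14b and LOC114841036 met at a 1.91-fold island, and Ncaph2, Odf3b, Tymp and Sco2 at a 1.88-fold one.

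Few members were marked in basal neurons. A basal island overlapped 4 of 811 (0.493% [0.135 to 1.26]), beside 2.15% of all KCl islands, 0.775% of those at 1 gene end and 2.65% of those at no gene end. The basal list was far shorter, with 711 islands, and came from another library, so an absent basal island is no measure of lower occupancy. Which control each list was called against is not stated, so folds of the lists are given side by side without comparison.

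Ncor1, a nuclear receptor corepressor, and Pigl, of GPI anchor synthesis, had 128 IP and 46 control reads in KCl (chr11:62454401-62459200, 1.75-fold [1.24 to 2.50]) and 54 and 28 in basal neurons (2.19-fold [1.36 to 3.59]). The transcription factor gene Zfp143 and the importin gene Ipo7 had 167 and 58 in KCl (chr7:110058201-110063000, 1.81-fold [1.33 to 2.48]) and 56 and 34 in basal neurons (1.87-fold [1.20 to 2.96]). The mitochondrial chaperonin genes Hspd1 and Hspe1 had 83 and 35 in KCl (chr1:55085801-55088600, 1.49-fold [0.992 to 2.28]) and 52 and 40 in basal neurons (1.48-fold [0.960 to 2.29]). Both intervals at the chaperonin pair reached below 1. Junb, an AP-1 subunit gene, and the peroxiredoxin gene Prdx2 had 90 and 42 in KCl (chr8:84974201-84977400, 1.35-fold [0.923 to 1.99]). The basal island there held 68 and 45 (chr8:84977201-84981000, 1.72-fold [1.16 to 2.56]) and met only the right edge of the KCl island. Reads were counted in each list's own island, so the counts of the 2 conditions cover different stretches at all these places.

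By the same rule, 6 of the 711 basal islands (0.844% [0.310 to 1.83]) lay at adjoining ends. Of these 6, 3 overlapped a KCl island (50% [11.8 to 88.2]). The share over all 711 basal islands is not given here, so this count is not read as high or low. The 6 basal islands were at Ncor1 with Pigl, Il11ra2 with Ccl27b, Pikfyve with Pth2r, Gm4303 with Gm4305, Hspd1 with Hspe1, and Alg5 with Exosc8. Of these, Alg5 with Exosc8 was head-to-head without a KCl overlap (59 IP and 47 control reads, 1.43-fold [0.956 to 2.14]).

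Among all gene pairs with ends within 4 kb, an island covered 29.2% of head-to-head pairs and 37.1% of overlapping heads. It was 22.3% for pairs with an unlisted strand. Beside those shares, of 16 pairs listed for their documented shared promoters, 4 were members. Besides Hspd1 with Hspe1 these were the collagen IV genes Col4a1 with Col4a2 (73 IP and 25 control reads, 1.83-fold [1.15 to 3.02]), the purine synthesis genes Paics with Ppat (78 and 29, 1.69-fold [1.09 to 2.68]), and Pdcd10 with Serpini1, which encodes the neuronal serpin neuroserpin (97 and 45, 1.35-fold [0.941 to 1.97]). No KCl island of these widths covered both ends at the other 12, which included Brca1 with Nbr1, Atm with Npat, Col4a3 with Col4a4, Col4a5 with Col4a6, Surf1 with Surf2, Mrps12 with Sars2, Prkdc with Mcm4, Sirt3 with Psmd13, Fen1 with Tmem258, Tap1 with Psmb9, and Brca2 with Zar1l, whose ends lay farther than 4 kb apart.

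Gene groups were read against the 9281 protein-coding genes with an end within 4 kb of another gene's end, of which 17.8% were touched by a member. Replication-dependent histone genes, which are packed in clusters and often transcribed in divergent pairs, had the highest share, 32 of 59 (54.2% [40.8 to 67.3]). They sat at 13 islands, so the genes are not independent. The island at H4c8, H3c8 and H2ac10 held 84 IP and 24 control reads (chr13:23533001-23536600, 2.20-fold [1.38 to 3.62]), and that at H1f5 and H3c11 65 and 21 (chr13:21782201-21784000, 1.94-fold [1.17 to 3.35]). The lowest, at H4c9, H2ac11 and H2bc11, held 126 and 61 (1.30-fold [0.948 to 1.79]). Near-identical histone copies can share reads, and how such reads were placed is not given in the sources used here.

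Chaperone and proteasome genes were touched in 10 of 31 cases (32.3% [16.7 to 51.4]). Mrpl32, a mitochondrial ribosomal protein gene, and Psma2, a proteasome core subunit gene, lay head-to-head under an island of 37 IP and 9 control reads (chr13:14612601-14613600, 2.58-fold [1.22 to 6.08]). Cct6a, of the cytosolic chaperonin, and the serine synthesis gene Psph had 49 and 13 (2.37-fold [1.26 to 4.76]). Cytosolic ribosomal protein genes were touched in 17 of 56 cases (30.4% [18.8 to 44.1]), led by Rpl18 with the sphingosine kinase gene Sphk2 (53 and 13, 2.56-fold [1.38 to 5.12]) and Rpl41 with Zc3h10 (63 and 18, 2.20-fold [1.29 to 3.94]). Processed pseudogenes of ribosomal protein genes can share their reads too.

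Nuclear-encoded respiratory chain genes were touched in 16 of 59 cases (27.1% [16.4 to 40.3]). The largest folds there were at Ndufa13, given above, and at the ATP synthase gene Atp5d with Cbarp, a regulator of calcium channels (118 and 28, chr10:80136001-80140200, 2.65-fold [1.74 to 4.15]). Mitochondrial ribosomal protein genes were touched in 12 of 57 (21.1% [11.4 to 33.9]), led by Mrps7 with Gga3 (42 and 8, 3.30-fold [1.53 to 8.13]) and Mrps16 with Cfap70 (43 and 10, 2.70-fold [1.34 to 6.03]). DNA repair genes were touched in 12 of 65 (18.5% [9.92 to 30.0]), close to the share of all adjoining genes, although Rad51c and Apex1 stood high by fold, and 7 of their 13 islands were head-to-head. Zinc finger genes with Zfp numbers (25 of 133, 18.8%) and tRNA synthetase genes (5 of 27, 18.5%) also lay near that share. Zfp445 with Zkscan7 (3.08-fold) and Zfp553 with Septin1 (2.88-fold) led the former, and Kars with Adat1 (1.90-fold) and Qars with Qrich1 (1.74-fold) the latter.

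Of 50 rapid activity-regulated genes 11 (22%) had an adjoining end, beside 42.4% of all protein-coding genes, and 4 of these were touched (36.4% [10.9 to 69.2]). Ppp1r15a, which restarts translation after stress, had 38 IP and 11 control reads with Tulp2 at its far end (chr7:45521601-45522400, 2.17-fold [1.09 to 4.71]). Jund, an AP-1 subunit gene, had 92 and 29 with Iqcn (chr8:70698401-70701400, 1.99-fold [1.30 to 3.14]). Srf, the serum response factor gene, had 65 and 27 with Cul9 (chr17:46545201-46547200, 1.51-fold [0.952 to 2.46]), and Junb is given above. None of the 4 islands was head-to-head. Of 14 neuron genes with an adjoining end, Shank1 and the vesicular glutamate transporter gene Slc17a7 (2.51-fold) were touched. By the wider measure of a KCl island of any width at any end, 37 of the 50 rapid genes (74%) had one. So had 30 of the 40 neuron genes (75%), beside 25.2% of all protein-coding genes.

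No gene with an adjoining end was touched among 6 astrocyte, 3 oligodendrocyte lineage and 6 microglia genes, numbers too small to limit the share. The same held for 0 of 25 Hox genes, which allows a share of up to 12% by a limit of 3 counts (13.7% as the Clopper-Pearson upper bound), and for 0 of 46 olfactory receptor genes, which allows up to 6.52% by 3 counts (7.71% as the upper bound). Clustered protocadherins were touched in 21 of 49 cases, all by the 1 island on chromosome 18. For lists other than histones and protocadherins, each interval included 17.8% or the share was 0, apart from cytosolic ribosomal protein genes, whose lower bound was 18.8%.

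**Figure D4:**
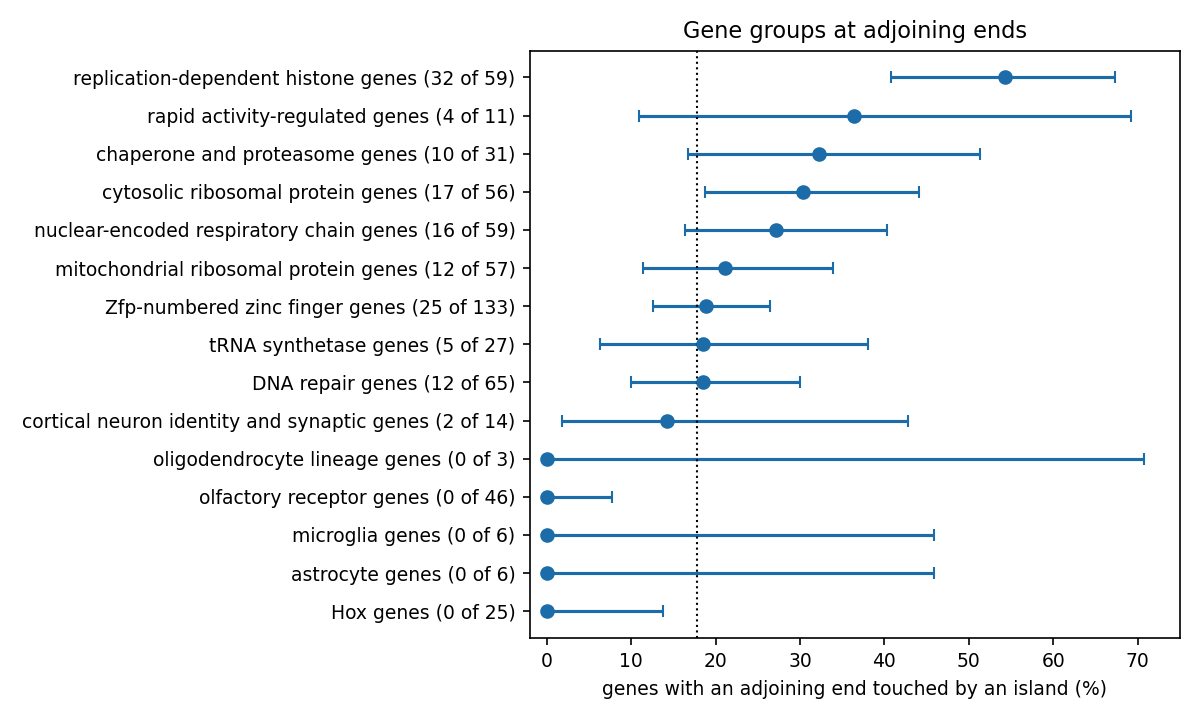
Share (%) of genes with an adjoining end that were touched by an island at adjoining ends, by gene list, with the number touched of the number with such an end. Points are shares, error bars 95% Clopper-Pearson intervals, and the dotted line is at 17.8% for all protein-coding genes with an adjoining end. Histone genes stand highest at 54.2%, and Hox and olfactory receptor genes are at 0.

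CpG density moved with the arrangement. Of all 17491 gene starts of known strand, 20.9% had a KCl island of these widths within 2 kb. The share was 34.4% [31.6 to 37.2] for starts with a head-to-head neighbour within 1 kb (398 of 1158) and 22.4% [18.4 to 26.9] where it lay 1 to 4 kb away (87 of 388). It was 23.6% [22.0 to 25.3] for starts near another kind of end (604 of 2554), and 19.1% [18.4 to 19.8] for starts with no other end within 4 kb (2451 of 12823). Of the close head-to-head starts, 11.6% had under 4 CpG per 100 bases of promoter (250 bases before to 50 after the start), against 52.2% of the starts with no other end.

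The gap between the classes narrowed as CpG density rose. Under 4 CpG per 100 bases, 26.1% [18.9 to 34.4] of close head-to-head starts had an island (35 of 134) and 5.82% [5.27 to 6.41] of starts with no other end (390 of 6698). The median CpG density in this class was 2.17 for the former and 1 for the latter, so the 2 sets were not matched there. From 4 to under 8 the shares were 32.5% [28.2 to 37.0] and 25.3% [23.8 to 26.9]. At 8 or more they were 37.9% [33.8 to 42.0] and 41.8% [40.1 to 43.6], with overlapping intervals. A start in a pair can have its window covered by an island at its partner, so starts in pairs are not independent. Genes with an island had a median length of 20.8 kb in close head-to-head pairs and 41.7 kb where no other end was near. All genes of these classes had medians of 17.7 and 18.8 kb.

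**Figure D5:**
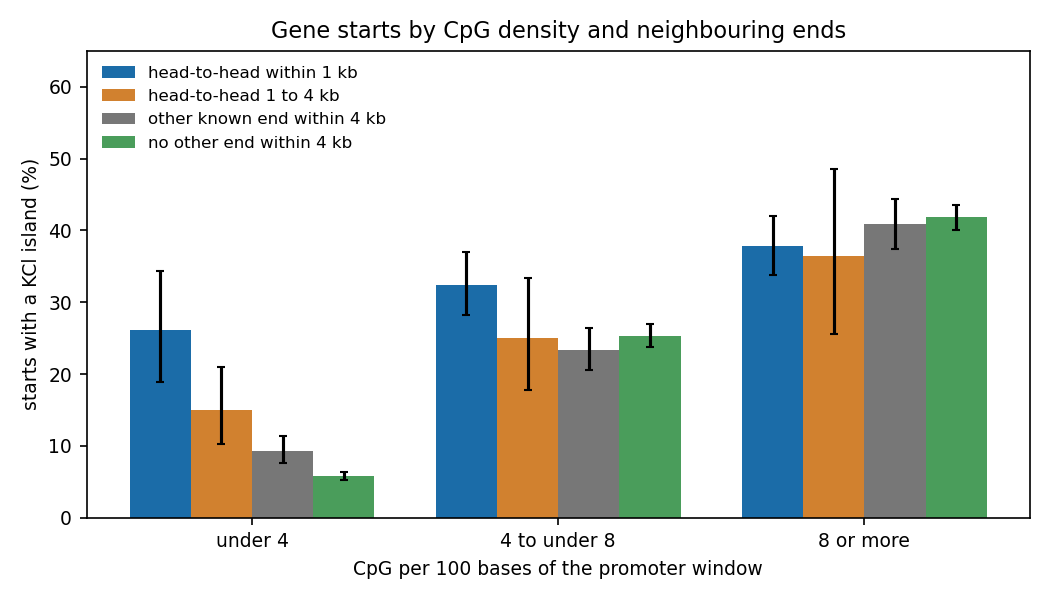
Share (%) of gene starts with a KCl island over 600 and under 5000 bp wide within 2 kb, by CpG per 100 bases of the promoter window and by the nearest other gene end. Bars are shares and error bars 95% Clopper-Pearson intervals. Starts with no other end rise from 5.82% to 41.8% with CpG density, and close head-to-head starts from 26.1% to 37.9%.

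Promoter letters were compared over the same 300-base windows from RefSeq. Median GC content was 62.7% for the 455 head-to-head genes at members, 63.0% for the 647 other starts at members, 64.7% for the 2549 starts at islands of 1 gene end, 58.7% for 1037 head-to-head genes with no KCl island at the start, and 56.3% for all 17491 promoters. The GC box GGGCGG was found in 69.7% [65.2 to 73.9] of head-to-head promoters at members and in 56.8% [53.7 to 59.8] of those without an island, beside 46.3% of all promoters. Members thus shared GC-rich promoters with other islands at gene starts.

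The CRE TGACGTCA occurred in 4.40% [2.71 to 6.71] of head-to-head promoters at members and in 2.80% [1.88 to 3.99] of those without an island, and these intervals overlapped. It occurred in 4.48% of other starts at members, 3.53% of starts at islands of 1 gene end and 2.33% of all promoters. The AP-1 site TGACTCA was found in 3.08% [1.69 to 5.11] of head-to-head promoters at members, beside 4.56% of all promoters. The YY1 site AAGATGGC was more frequent at head-to-head promoters with an island (8.57% [6.17 to 11.5]) and without one (7.62% [6.08 to 9.40]) than among all promoters (3.21%). The ETS site CCGGAAGT behaved likewise, at 9.01%, 11.0% and 5.28%. TATAAA was found in 6.15% of head-to-head promoters at members, 8.10% of those without an island and 13.3% of all. All motifs were searched on both strands, none of these strings holds another, and at 144 of the 227 head-to-head members the windows of both genes share bases, so promoters are not independent.

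Chromosomes held members unevenly. On chromosome 7 they made up 8.19% of the KCl islands, on chromosome 11 7.56% and on chromosome 17 7.22%. These chromosomes held 635, 595 and 414 gene pairs with ends within 4 kb. Pair number did not set the share alone. Chromosomes 2, 18 and 4 held 506, 489 and 431 such pairs, with lower shares of 5.02%, 1.62% and 3.26%. The X chromosome had 1 member among 227 KCl islands, at the Krebs cycle gene Idh3g and the translocon gene Ssr4 (63 IP and 23 control reads, chrX:73784801-73787600, 1.72-fold [1.05 to 2.91]). An island covered 1 of 23 head-to-head pairs on X (4.35% [0.110 to 21.9]) and 228 of 760 on the autosomes (30%). Median control density in KCl islands was 7.11 reads per kb on X and 9.03 to 9.69 on the autosomes, and its part in this result was not tested.

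Near the 2 kb limit, the second end of Pus3 with Hyls1 lay 2000 bp from its island (1.71-fold) and that of Ap1s1 with Vgf 1993 bp (1.97-fold), whereas Crls1, with Mcm8 at 2004 bp (1.74-fold), and Notch4, with Gpsm3 at 2006 bp (3.04-fold), lay just outside. By width, the 10 members of 800 bp had a median fold of 2.02 and the 7 islands of 600 bp just outside one of 2.78. The 8 members of 4800 bp had a median of 1.81 and the 7 islands of 5000 bp one of 1.70.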

How the data were processed

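Per the submitters' processing notes, BWA aligned the reads to mouse build mm10 (GRCm38) and SICER 1.0 called the islands. Settings in the list names are window 200 bp, gap 600 bp and FDR 0.01. An island's row, as deposited, holds its raw count of IP reads and of control reads, a p-value with its FDR, and the fold. This deposited ratio divides IP by control reads and then by 1 constant for the library (1.59 for KCl, 0.880 for basal). The lists were called per library, not on pooled samples. The labels do not say which input was the control of which list, and separate input files were not analysed here.

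Coordinates were made 1-based. Gene ends of 21896 protein-coding genes came from RefSeq (GRCm38.p6), and strand and promoter sequence from the RefSeq promoter table, which matched 17491 of them (79.9%) and none on chromosome 18. Each pair at an island was typed from strands and start order. An island with any head-to-head pair was called head-to-head. Otherwise it was unresolved if any gene end near it lacked a strand. The rest took the first type found in the order overlapping heads, tail-to-tail, head-to-tail, starts on the same strand. The class of overlapping heads was not foreseen and was put next after head-to-head once the data were seen. Fold intervals are 95% exact binomial intervals of the IP share of an island's reads, divided by the library constant. Shares have Clopper-Pearson intervals. With 1 library per kind and condition, no test was made between conditions, and the samples were grouped by their titles.

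Named islands had at least 20 IP reads and at least 1 control read, leaving out the 1% of KCl islands with the highest control density. They were the first 8 head-to-head islands by fold, the first 4 of each other arrangement, the 4 with the most genes and the 4 with the most IP reads, those overlapping a basal island, the listed documented pairs, and up to 2 per gene list. Other names were chosen after their values were seen, and 1 listed pair is not reported here. The members and gene lists were chosen with earlier results of these data known, so no count over a list is independent support. Scripts were tested on simulated data. Software was Python 3.11.15 with numpy 2.4.6, pandas 2.3.3, scipy 1.17.1 and matplotlib 3.10.9.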

Additional observations from a re-analysis of the deposited data

How the results depend on the processing

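The count of 811 members became 1234 with windows of 5 kb, 408 at an FDR of at most 1e-05 and 216 at a fold of at least 2, and stayed within 1.5 times under the other 3 alternatives. The head-to-head share of 28.0% was 31.5% with windows of 1 kb and 24.7% with starts at most 1 kb apart. In alternatives added after seeing the data it was 36.6% where every strand was known and 46.9% with overlapping heads included. The median fold of 1.75 rose to 2.01 at an FDR of at most 1e-05, as the stricter list leaves out weak islands. The share with a fold interval above 1, 70.0%, was 39.3% with 99% intervals and 100% at that FDR. With at least 50% of the KCl island covered, 0 members overlapped a basal island. Pair coverage, under alternatives added after seeing the data, was 13.7% head-to-head, 6.83% head-to-tail and 2.61% tail-to-tail at that FDR. It was 7.15%, 3.42% and 1.71% at a fold of at least 2, and 20.2%, 9.66% and 3.16% with a fold interval above 1, so the order of these arrangements was the same under these 3 settings. No paired analysis was possible because each condition had 1 IP library.

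Limits are the single library per condition, the unknown total depth, median control counts of 25 reads per member, strands missing for a part of the genes, and 1 start listed per gene. A list called from 1 library at 1 threshold cannot show that uncalled places lack BRG1/BRM.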

Other observations

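A long noncoding RNA gene had an end within 2 kb of 65 of the 811 islands at adjoining ends (8.01% [6.24 to 10.1]) and of 9 of the 227 head-to-head ones (3.96% [1.83 to 7.39]). At the end of 1 protein-coding gene the share was 19.5% [18.2 to 20.8], at 1 start 20.5%, and away from gene ends 7.44%. MicroRNA genes lay near 12 members (1.48% [0.767 to 2.57]), beside 1.11% of islands at 1 gene end, with overlapping intervals. The intervals for snoRNA, snRNA and tRNA genes also overlapped between members and islands at 1 gene end. Away from gene ends, microRNA genes lay near 0.228% [0.155 to 0.323] of islands and snoRNA genes near 0.221% [0.149 to 0.315]. Both intervals lay below those of members, whose snoRNA share was 0.986% [0.427 to 1.93]. The snRNA and tRNA intervals of members overlapped those away from gene ends. The microRNA genes at members included Mir191 and Mir425 at Impdh2, Ndufaf3 and Dalrd3, and Mir15b at Ift80 and the condensin-family gene Smc4. These names were chosen after their values were seen, and no test was made of these shares.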
